A study of Homo sapiens with 6 samples.

Results

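HSP90 and its cochaperones were followed here through 10 genes chosen by name, each of which has a single row among the 26391 rows of the deposited expression table. These are the cytosolic chaperones HSP90AA1 and HSP90AB1, the mitochondrial member TRAP1, the cochaperones AHSA1, STIP1, CDC37, PTGES3, FKBP4 and FKBP5, and the heat shock transcription factor HSF1. The RNA came from HEK293T, an established line of human embryonic kidney origin that expresses the SV40 large T antigen. Wells at 50% confluency received, by lipid transfection, either a pool of 4 siRNAs directed at LOC550643 or a non-silencing siRNA, which is the control here, and were lysed after 48 hours. LOC550643 encodes a small polypeptide that binds the decapping scaffold EDC4, and the comparison addresses which mRNA levels change when it is silenced. Each group held 3 libraries. Because there was 1 pool and 1 control siRNA, silencing of the target and any other effect of either reagent cannot be told apart, and in RNA from whole wells a change in the cells present and a change in RNA per cell cannot be told apart either.

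HSP90 is an abundant ATP-driven chaperone that acts late in the folding of its clients, among them many kinases and the steroid hormone receptors. It works as a dimer that closes around a client when ATP is bound, and cochaperones set the pace and the purpose of this cycle: STIP1 hands clients over from HSP70, CDC37 brings kinases, PTGES3 holds the closed state, AHSA1 speeds ATP hydrolysis, and the immunophilins FKBP4 and FKBP5 sit on receptor complexes. HSP90AA1 is the stress-inducible cytosolic form and HSP90AB1 the more constitutive one. HSF1, which free HSP90 helps to keep inactive, drives the heat shock genes when unfolded protein accumulates.

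The libraries held 8604236 to 36082404 read pairs within genes, if each step in the spacing of the deposited values is a read end. That reading of the steps was not tested. LOC550643 siRNA replicate 3 was the shallowest library. The members were well covered even there, with between 892 pairs (FKBP5) and 16708 pairs (HSP90AA1) in their thinnest library. The target, listed as LINC01420, stood at 50.7 to 56.2 CPM (read counts scaled per library to a common total) with control siRNA and at 5.41 to 5.96 CPM with LOC550643 siRNA, 10.9% of control on average. Markers of the line such as NEFL (95.8 to 110.6 CPM) and VIM (758.5 to 927.4 CPM) were present in every library. Of the markers of other cell types looked at, the collagen gene COL1A1 was detected at 59.2 to 68.3 CPM, while the leukocyte gene PTPRC and the endothelial gene PECAM1 did not exceed 0.0145 and 0.0604 CPM. Control replicate 2 stood furthest from its group.

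After LOC550643 siRNA, 9 of the 10 genes were higher and none was lower (limma, adjusted p under 0.05 over 16245 genes tested). Over all genes tested 17.5% were called higher and 18.2% lower, 35.7% in all. Of the genes called, 49.0% were higher, a share that fell to 34.4% when libraries were scaled by their totals alone. The members are abundant genes, 9 of them in the top 10% by mean level, and abundant genes in these libraries rose more often than others. Among the 3087 genes with a mean of at least 87.4 CPM, that of FKBP5, the least abundant member, 35.2% were called higher and 11.2% lower. The median log2 difference, LOC550643 siRNA over control, was 0.52 for the 10 genes, -0.02 for all genes tested and 0.12 for the 3087 genes of like abundance. In all 10 genes the CPM of the groups did not overlap, which was so upward for 23.7% of all genes, 48.5% counting both directions, and upward for 42.9% of genes of like abundance. Before TMM scaling, the deposited values of HSP90AB1 and HSF1 did overlap between groups. The summed level of the 10 genes was 3790 to 4296 CPM with control siRNA and 5403 to 6411 CPM with LOC550643 siRNA.

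**Figure D1:**
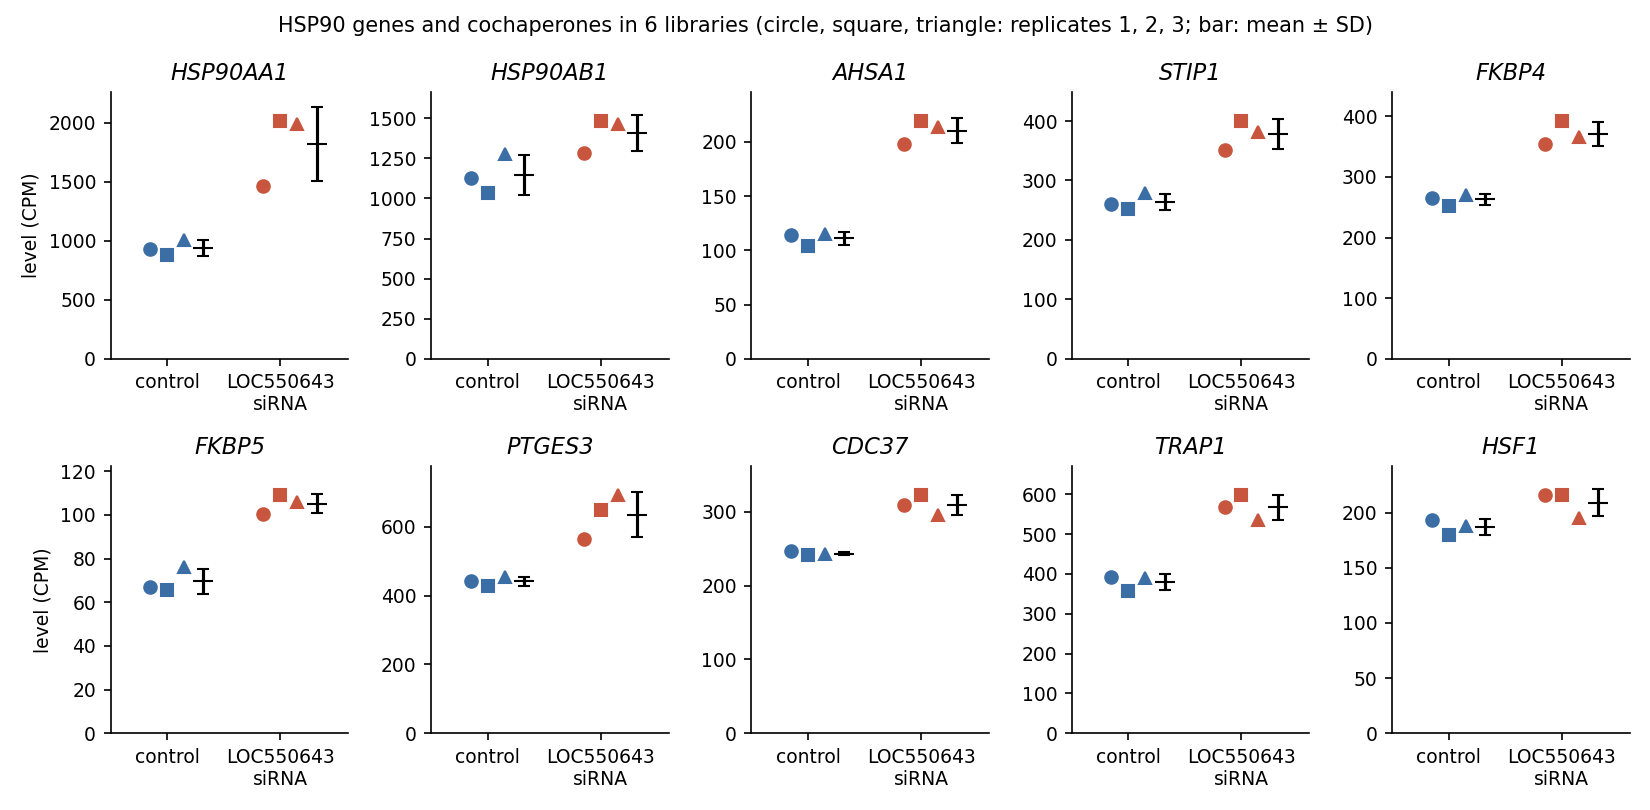
Level of each of the 10 genes in CPM (vertical axes, each starting at 0) in the 3 control libraries (blue) and the 3 LOC550643 siRNA libraries (red), with symbols for the replicate number and the mean and SD beside them. HSP90AA1 moves from 876.3 to 1005.2 CPM in control libraries to 1461.2 to 2017.8 CPM, while the groups of HSF1 and HSP90AB1 almost touch.

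The largest difference among the 10 was that of HSP90AA1, the inducible cytosolic HSP90. It stood at 933.5, 876.3 and 1005.2 CPM in control replicates 1 to 3 and at 1461.2, 2017.8 and 1986.6 CPM in LOC550643 siRNA replicates 1 to 3. The groups lay far apart, and LOC550643 siRNA replicate 1 was the lowest of its group. The means were 938.3 ± 64.6 and 1821.8 ± 312.7 CPM (SD, n = 3 each), a log2 difference of 0.94 (SE 0.123, limma adjusted p = 0.000196), or 1.92-fold with a 95% interval of 1.6 to 2.32. Of the 3087 genes of like abundance it ranked 31 by log2 difference, and by level it was gene 22 of all those tested. Its row spans 102547075 to 102606086 on the minus strand of chromosome 14 (hg19), and no other row of the table overlaps it.

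HSP90AB1, the constitutive cytosolic form, showed the smallest difference of the 9 genes that passed. Its control libraries stood at 1128.3, 1033.3 and 1276.0 CPM and its LOC550643 siRNA libraries at 1282.1, 1485.4 and 1461.8 CPM. The highest control library and the lowest LOC550643 siRNA library were thus almost level. The mean went from 1145.9 ± 122.3 to 1409.8 ± 111.2 CPM (SD, n = 3 each), a log2 difference of 0.30 (SE 0.101, limma adjusted p = 0.0375). This call depended on single libraries and on the scaling. Leaving out control replicate 1 gave an adjusted p of 0.104, control replicate 2 0.0762, LOC550643 siRNA replicate 2 0.141 and LOC550643 siRNA replicate 3 0.122. Scaling by totals gave 0.091, upper-quartile scaling 0.0616, and dropping the filter on low genes 0.102. The gene lies at 44214695 to 44221625 on the plus strand of chromosome 6.

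The share of each cytosolic form was set against the other within each library. Per kilobase of exon in the listed transcript, HSP90AA1 made up 36.5%, 37.1% and 35.4% of the sum of HSP90AA1 and HSP90AB1 in the control libraries. In the LOC550643 siRNA libraries it made up 44.2%, 48.6% and 48.6%, and the groups did not overlap. In CPM, with no division by length as in all ratios given here, the log2 ratio of HSP90AA1 to HSP90AB1 within a library was -0.29 ± 0.054 in control and 0.36 ± 0.146 after LOC550643 siRNA (SD, n = 3 each), a difference of 0.64. Division by length lowers this ratio equally in both groups and leaves the difference as it is, and per kilobase the mean of HSP90AB1 was the higher in both groups. The exact two-sided permutation test over libraries gave p = 0.1, the smallest that 3 against 3 allows, and 0.25 after Benjamini-Hochberg adjustment over the 5 ratios tested. Their summed level was 668.6 ± 62.2 CPM per kb in control and 995.0 ± 122.1 CPM per kb after LOC550643 siRNA (SD, n = 3 each). Both genes have processed pseudogenes in the genome, and how reads that fit several places were counted is not given in the sources used here.

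**Figure D2:**
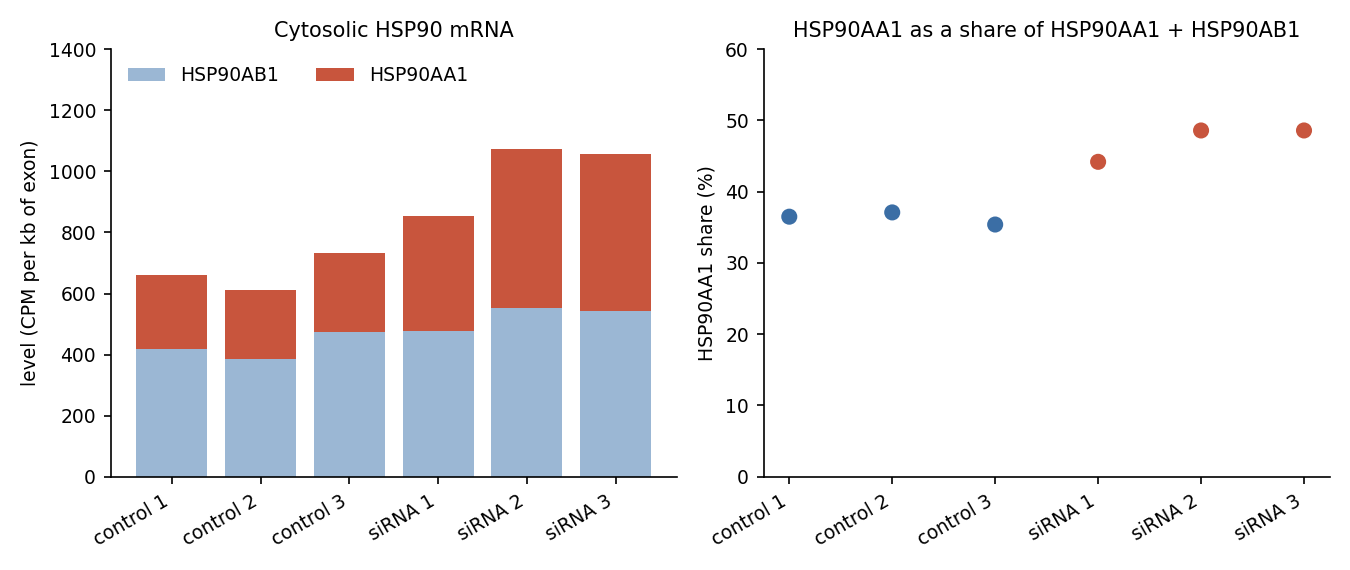
Left, the level of HSP90AB1 (blue) and HSP90AA1 (red) stacked for each library in CPM per kb of exon; right, HSP90AA1 as a percentage of their sum, both from an axis at 0. The share lies between 35.4% and 37.1% in the control libraries and between 44.2% and 48.6% in the LOC550643 siRNA libraries.

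HSF1 binds arrays of the unit GAA and its reverse complement TTC, alternating and spaced by a pair of bases, so the windows around the members' annotated starts were searched for these letters. RefSeq windows of 300 bases (GRCh38.p14, 250 before and 50 after the start) from 8 of the 10 members were searched, 14 windows in all. FKBP4 and HSF1 were not searched. A form of 3 units (TTC, GAA and TTC, or in reverse complement GAA, TTC and GAA, with NN between units) occurred in 2 members, HSP90AA1 and HSP90AB1, and in 0.61% of the 27305 genes with a window (0.49% of all 35116 windows). A form of 2 units (GAANNTTC or TTCNNGAA, each its own reverse complement and contained in the longer form) occurred in 3 members, STIP1 being the other, and in 16.18% of genes (13.49% of all windows). Genes with several windows, as some members have, offer more bases to match. The matched stretches of the cytosolic HSP90 genes are shown because, of the members searched, these alone held the longer form. The matches are in capitals, with 20 bases on each side.
HSP90AA1: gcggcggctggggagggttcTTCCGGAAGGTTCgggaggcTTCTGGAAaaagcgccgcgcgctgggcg
HSP90AB1: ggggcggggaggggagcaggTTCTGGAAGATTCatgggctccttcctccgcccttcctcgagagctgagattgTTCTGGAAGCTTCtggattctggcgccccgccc
The HSP90AA1 stretch is chr14:102087085-102087152 (GRCh38.p14, minus strand), with a match of 3 units at positions -88 to -76 and of 2 units at -68 to -61 from an annotated start at +1. The HSP90AB1 stretch is chr6:44247758-44247863 (plus strand), with matches of 3 units at -165 to -153 and -112 to -100. By an exact match of the windows to GRCh37 they fall at 102553422 to 102553489 and 44215495 to 44215600, inside the spans of the deposited rows and outside every exon of the GENCODE annotation there. No match was found in the other window of HSP90AA1, which takes in the start of its listed transcript. The other windows of HSP90AB1 held no match either. In STIP1 the match lay at positions 14 to 21, within an annotated exon. The windows of AHSA1, CDC37, FKBP5, PTGES3 and TRAP1 did not hold these letters.

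AHSA1, the activator of the HSP90 ATPase, was the cochaperone with the largest difference among the members. It stood at 114.6, 104.3 and 114.8 CPM in the control libraries and at 197.6, 219.6 and 213.5 CPM in the LOC550643 siRNA libraries, with tight and well separated groups. The mean rose from 111.2 ± 6.00 to 210.2 ± 11.4 CPM (SD, n = 3 each), by log2 0.92 (SE 0.072, limma adjusted p = 8.23e-06), which is 1.89-fold (95% interval 1.69 to 2.11). AHSA1 lies at 77924373 to 77935815 on chromosome 14, on the other strand from HSP90AA1 and far from it. The within-library ratio of AHSA1 to HSP90AA1 differed between the groups by -0.03 on the log2 scale (exact permutation p = 0.9, two-sided), with values of -3.13 to -3.03 with control siRNA and -3.22 to -2.89 with LOC550643 siRNA. This p does not show that the 2 genes moved alike.

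STIP1, also called HOP, which docks HSP70 and HSP90 together, went from 261.3, 252.8 and 279.4 CPM to 350.7, 400.7 and 381.1 CPM. Its log2 difference was 0.51 (SE 0.076, limma adjusted p = 0.000423), or 1.43-fold. CDC37, the adaptor for kinase clients, had the most even control libraries of the set, at 246.1, 241.2 and 242.5 CPM, against 308.6, 322.8 and 295.3 CPM after LOC550643 siRNA. It rose by log2 0.34 (SE 0.067, limma adjusted p = 0.00226), the smallest rise among the cochaperones of the set. The row of MIR1181 lies inside that of CDC37 on the same strand, and reads there cannot be assigned to either.

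PTGES3, the p23 cochaperone that stabilises the closed, ATP-bound dimer, stood at 443.4, 427.2 and 452.8 CPM with control siRNA and 564.2, 647.8 and 692.8 CPM with LOC550643 siRNA. As with HSP90AA1, LOC550643 siRNA replicate 1 was the lowest of its group, yet above every control library. The log2 difference was 0.52 (SE 0.086, limma adjusted p = 0.000838).

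The immunophilins FKBP4 and FKBP5 bind HSP90 at the same site and have opposed effects on the glucocorticoid receptor, FKBP4 favouring and FKBP5 damping hormone binding. FKBP4 went from 266.1, 252.7 and 270.9 CPM to 354.4, 393.0 and 366.1 CPM (log2 0.50, SE 0.071, limma adjusted p = 0.000345). FKBP5, the least abundant of the 10, went from 66.9, 65.7 and 76.3 CPM to 100.3, 109.2 and 106.1 CPM (log2 0.60, SE 0.077, limma adjusted p = 0.000183). Neither gene's groups overlapped. The log2 ratio of FKBP4 to FKBP5 was 1.92 ± 0.084 in control and 1.82 ± 0.030 in LOC550643 siRNA libraries (SD, n = 3 each). That difference of -0.10 was within overlapping groups (exact two-sided permutation p = 0.2, adjusted p = 0.25 over the 5 ratios). The row of MIR5690, at 0 CPM, lies inside that of FKBP5.

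TRAP1, the HSP90 of the mitochondrial matrix, stood at 393.5, 356.6 and 390.3 CPM with control siRNA and at 568.1, 598.7 and 536.2 CPM with LOC550643 siRNA. It rose by log2 0.58 (SE 0.076, limma adjusted p = 0.00021), or 1.49-fold with a 95% interval of 1.33 to 1.68. Its log2 ratio to HSP90AA1 went from -1.30 ± 0.06 to -1.67 ± 0.273 (SD, n = 3 each), with groups that met at the value of -1.36 (exact two-sided permutation p = 0.2). TRAP1 shares 59 bases with DNASE1 on the opposite strand, a gene of 17.2 CPM with control siRNA and 25.5 CPM with LOC550643 siRNA, and reads in those bases may belong to either gene.

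HSF1, the transcription factor of the heat shock response, did not pass. It stood at 193.7, 179.8 and 188.1 CPM with control siRNA and at 215.8, 216.2 and 194.9 CPM with LOC550643 siRNA, the lowest of which was almost level with the highest control library. The log2 difference was 0.16 (SE 0.071, limma adjusted p = 0.104, 95% interval 0.00 to 0.31), close to the median of 0.12 of genes of like abundance. The ratio of HSP90AA1 to HSF1 was higher in every LOC550643 siRNA library, at log2 2.76 to 3.35 against 2.27 to 2.42, a difference of 0.79 (exact two-sided permutation p = 0.1, the smallest possible, and 0.25 adjusted over the 5 ratios). HSF1 is on chromosome 8, and its row overlaps that of DGAT1 on the opposite strand by 140 bases.

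**Figure D3:**
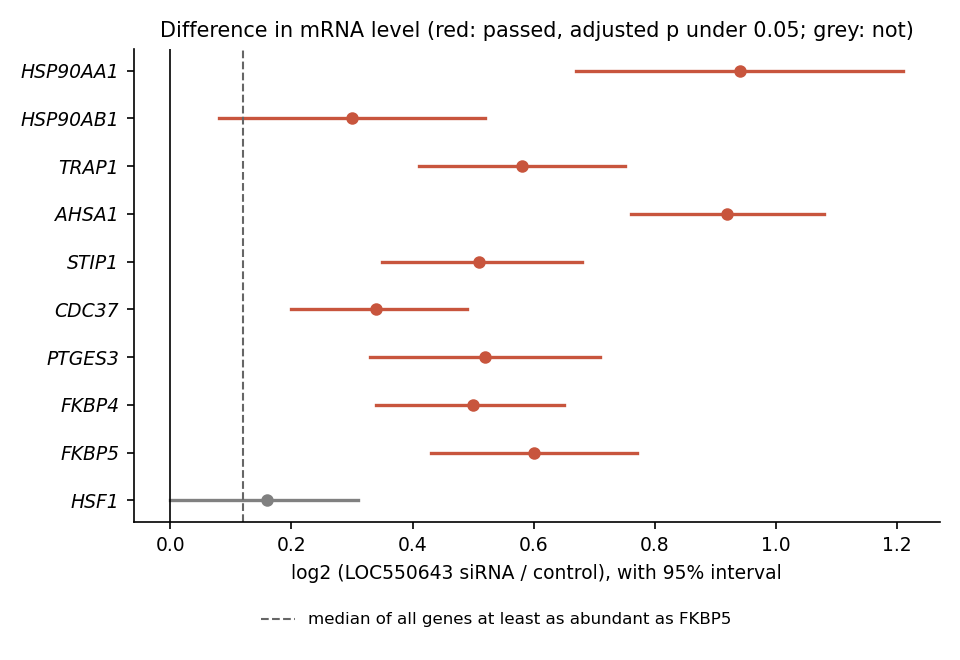
Log2 difference in level, LOC550643 siRNA over control (horizontal axis), of each of the 10 genes with its 95% interval from limma; red passed, grey did not, and the dashed line marks the median of genes at least as abundant as FKBP5, 0.12. HSP90AA1 (0.94) and AHSA1 (0.92) lie furthest to the right, and the intervals of HSP90AB1 and HSF1 take in the dashed line.

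Per kilobase of exon, the order of the 10 genes was clear in the control libraries. HSP90AB1 led at 426.1 CPM per kb, followed by HSP90AA1 at 242.5, PTGES3 at 213.3, TRAP1 at 167.0, CDC37 at 146.5 and STIP1 at 121.1. HSF1 (87.6), AHSA1 (80.1) and FKBP4 (70.6) came next, FKBP5 was last at 18.3 CPM per kb, and no neighbours in this order overlapped in their library values. In the LOC550643 siRNA libraries HSP90AB1 (524.3) and HSP90AA1 (470.8) overlapped, as did CDC37 with STIP1 and FKBP4 with HSF1. AHSA1 stood above HSF1 there, at 151.3 against 97.8 CPM per kb. These levels use the length of the 1 transcript listed for each gene, which for HSP90AA1 (3870 bases) belongs to a long form with an upstream start.

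The endoplasmic reticulum form, HSP90B1, rose from 879.0 ± 52.1 to 1282.2 ± 141.8 CPM (SD, n = 3 each, log2 0.54, limma adjusted p = 0.00141). Of 14 names of other HSP90 genes and pseudogenes searched, 3 had a row. The pseudogene HSP90B2P was higher by log2 0.52 (limma adjusted p = 0.00852) at 5.90 and 8.51 CPM, and its row lies within LRRC28 on the same strand. Whether reads of the far more abundant HSP90B1, or of LRRC28, were counted in the row of HSP90B2P was not tested. HSP90AB4P was at most 0.174 CPM in any library and was not tested.

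Beyond the 10 genes, 37 further cochaperones and partners of HSP90 were looked up, of which 35 were tested. There were 15 that rose, 3 that fell and 17 that did not pass, and the median log2 difference was 0.19. That is 42.9% higher, where 35.2% of genes of like abundance to the members and 17.5% of all genes were. It is 8.57% lower, where 11.2% of genes of like abundance to the members and 18.2% of all genes were. Some of these cochaperones were less abundant than any member. NUDCD3, a relative of the nuclear distribution protein NUDC that works with HSP90 on dynein and beta-propeller proteins, was well apart from the rest. It went from 63.9, 63.0 and 62.7 CPM to 139.6, 148.6 and 136.7 CPM (log2 1.16, SE 0.065, limma adjusted p = 1e-06). NUDC itself rose by 0.60 and TOMM34, a TPR protein that links HSP70 and HSP90 to mitochondrial import, by 0.76.

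Among other TPR and adaptor proteins, the mitochondrial immunophilin FKBP8 rose by log2 0.53, the HSP70 partner ST13 (HIP) by 0.51, the ubiquitin ligase STUB1 (CHIP) by 0.44 and the myosin chaperone UNC45A by 0.41. CDC37L1, a relative of CDC37, rose by 0.53, the histone chaperone NASP by 0.41, CHORDC1 by 0.36 and the calcyclin-binding protein CACYBP by 0.35. The ATPases RUVBL1 and RUVBL2 of the R2TP complex, with which HSP90 assembles large kinases and snoRNPs, rose by 0.31 and 0.41. STUB1 and UNC45A overlap JMJD8 and HDDC3 on the opposite strand by 1102 and 1652 bases. The call of CHORDC1 was lost without control replicate 1 (adjusted p = 0.0637).

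The 3 that fell included a partner of 1 that rose. TTI1 and TELO2 are subunits of the TTT complex, which matures kinases of the PI3K-like family together with HSP90. TTI1 went from 79.0, 80.2 and 80.7 CPM to 38.8, 43.5 and 39.2 CPM (log2 -0.98, SE 0.071, limma adjusted p = 4.88e-06). TELO2 rose from 87.2 ± 1.76 to 128.9 ± 5.17 CPM (SD, n = 3 each, log2 0.56, limma adjusted p = 9.14e-05), and the other subunit, TTI2, was at -0.13 and did not pass. AHSA2, the paralog of AHSA1, fell from 75.8 ± 5.82 to 62.2 ± 2.31 CPM (SD, n = 3 each, log2 -0.28, limma adjusted p = 0.0135), opposite to AHSA1, and overlaps USP34 on the other strand by 97 bases. FNIP1, an inhibitor of the HSP90 ATPase, fell by 0.27 on the log2 scale. Leaving out control replicate 2 took FNIP1 to an adjusted p of 0.0668, LOC550643 siRNA replicate 1 to 0.0833 and LOC550643 siRNA replicate 2 to 0.0747. Cochaperones that did not pass included PPID (log2 0.01, 95% interval -0.18 to 0.20), SUGT1 (0.15), DNAJC7 (0.15) and the phosphatase PPP5C (0.19, interval 0.03 to 0.35).

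**Figure D4:**
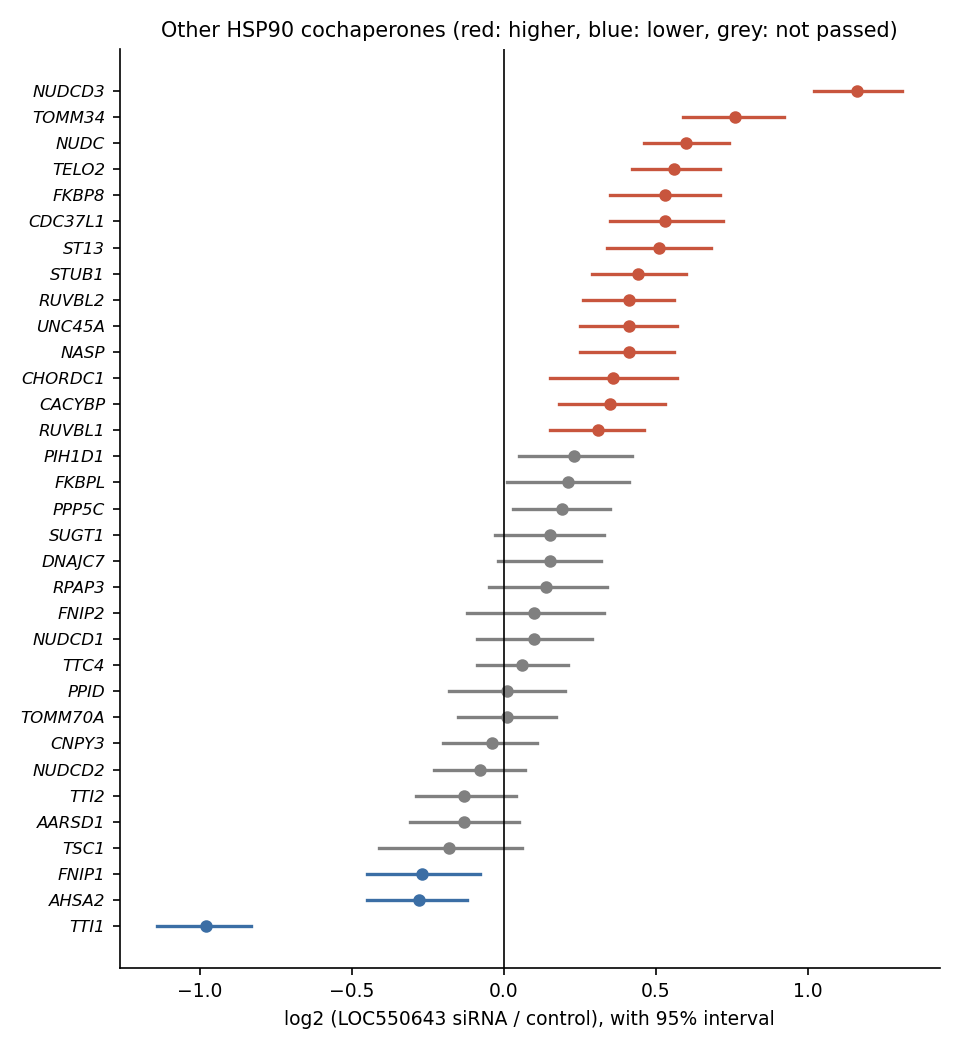
Log2 difference, LOC550643 siRNA over control, with its 95% interval from limma, for the further HSP90 cochaperones with a control mean of at least 1 CPM, of which 1 is not shown; red rose, blue fell and grey did not pass. NUDCD3 (1.16) and TTI1 (-0.98) lie at the ends, and most of the others between -0.3 and 0.8.

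Genes of the heat shock response outside the HSP90 machine were looked up as well. Of 19 tested, 8 rose (42.1%, against 17.5% of all genes and 35.2% of genes of like abundance to the members) and 1 fell (5.26%, against 18.2% and 11.2%). The other 10 did not pass. The median log2 difference over the list was 0.16, against 0.12 for genes of like abundance to the members and -0.02 for all genes tested. Some genes of the list were less abundant than any member. HSPA4, a nucleotide exchange factor of the HSP110 type, rose by log2 0.46, DNAJA1 by 0.41 and the chaperonin HSPD1 by 0.62, whose row overlaps HSPE1 on the other strand by 278 bases. HSPA1B, the inducible HSP70, was higher by 0.67 (limma adjusted p = 0.00133), but it is listed at 5 positions and its reads may be shared with HSPA1A. DNAJB1, among the genes most strongly induced by heat shock, fell from 85.9, 85.5 and 87.4 CPM to 70.7, 69.6 and 74.4 CPM (log2 -0.27, limma adjusted p = 0.00743). HSPH1 (log2 0.16), HSPB1 (0.06) and the co-chaperonin HSPE1 (-0.00) did not pass. DNAJB1, HSPH1, HSPB1 and HSPE1 were named after their values were seen.

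Among relatives and regulators of HSF1, 5 of 6 were tested. Of these, 1 fell (20%, near the 18.2% of all genes) and 4 did not pass. None rose, where 17.5% of all genes did. HSF4 fell from 30.3 ± 2.59 to 18.6 ± 1.91 CPM (SD, n = 3 each, log2 -0.70, limma adjusted p = 0.000331), and it shares 790 bases of span with FBXL8 on the same strand. HSF2 was at 0.15 (limma adjusted p = 0.0864). HSF2BP and HSBP1L1, at 0.374 and 0.718 CPM in control, did not pass either.

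Of 17 other mitochondrial chaperones and proteases set beside TRAP1, 11 rose, none fell and 6 did not pass (limma, median log2 difference 0.34). That is 64.7% higher, where 17.5% of all genes and 35.2% of genes of like abundance to the members were. The shares called lower were 18.2% of all genes and 11.2% of genes of like abundance to the members. Some genes of this list, DNAJC19 among them, were less abundant than any member. The matrix protease LONP1 went from 177.5, 162.6 and 170.9 CPM to 485.4, 462.4 and 422.6 CPM (log2 1.42, SE 0.075, limma adjusted p = 8.95e-07), a larger difference than that of any member. HSPA9, the matrix HSP70, rose from 342.2 ± 45.4 to 606.8 ± 27.2 CPM (SD, n = 3 each, log2 0.83), its J-protein DNAJA3 by 0.50 and the inner membrane protease AFG3L2 by 0.60. Beside this count of 0, DNAJC19 (log2 -0.37, limma adjusted p = 0.0679) was the 1 gene of the list lower at an unadjusted p under 0.05, and was named after its values were seen.

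Among the mRNAs of 25 kinase clients of HSP90, 11 rose (44%) and 4 fell (16%), where 17.5% of all genes rose and 18.2% fell, and 35.2% and 11.2% of genes of like abundance to the members. Their median log2 difference was 0.11, against 0.12 for genes of like abundance to the members and -0.02 for all genes tested. Some of these clients, EGFR among them, were less abundant than any member. AKT1 rose from 126.2 ± 1.30 to 194.5 ± 8.24 CPM (SD, n = 3 each, log2 0.62), CHUK by 0.47 and LIMK1 by 0.42, while EGFR fell from 30.7 ± 4.92 to 17.4 ± 0.235 CPM (log2 -0.80, limma adjusted p = 0.000232). EGFR shares 9200 bases of its span with EGFR-AS1 on the opposite strand. Of 9 tested receptor and transcription factor clients 3 rose (33.3%) and 2 fell (22.2%), the latter near the share of all genes, with STAT3 at log2 0.60 and HIF1A at 0.31 among those higher. HIF1A overlaps HIF1A-AS2 on the opposite strand, at 40.3 CPM in control. PGR was among those that fell, at 0.533 CPM in control and 0.147 CPM after LOC550643 siRNA. The glucocorticoid receptor NR3C1 was at 0.02 (limma adjusted p = 0.865, 95% interval -0.14 to 0.18).

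FKBP5 is a classic target of the glucocorticoid receptor, so 10 other such targets were set beside it. The result was 2 higher (20%), 2 lower (20%) and 6 not past the test, near the 17.5% and 18.2% of all genes, and the median (0.02) and mean (-0.03) log2 difference differed in sign. ZBTB16 (log2 0.68) and DUSP1 (0.28) were higher and CRISPLD2 (-0.94) and SGK1 (-0.45) lower. TSC22D3, named after its values were seen, stood at 0.26 (limma adjusted p = 0.0568). Prolyl isomerases of the FKBP and cyclophilin families without a role at HSP90 had a median of 0.00. Of 23 tested 5 rose (21.7%) and 3 fell (13%), again near the shares of all genes, with FKBP14 at 0.35, PPIL2 at 0.32, PPIB at 0.24 and FKBP1A at -0.25. The counts of these last lists moved with the library left out, and the calls of ZBTB16, DUSP1, SGK1, FKBP14, PPIB and FKBP1A were each lost in at least 1 such fit.

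Outside these lists, the genes whose log2 values followed HSP90AA1 most closely over the 6 libraries were BUB1, a kinase of the spindle checkpoint, the endoplasmic reticulum protein LRRC59, the ATP synthase assembly factor ATPAF1 (Pearson r = 0.999 each) and the nucleotidase CANT1 (r = 0.998). They were picked as the top 4 of 11106 genes with a mean of at least 10 CPM, all from the same 6 libraries with the same split into groups. Their own log2 differences were smaller, at 0.36, 0.34, 0.40 and 0.32. LRRC59 overlaps EME1 on the opposite strand by 227 bases.

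The authors' deposited table lists log2 fold changes of 0.95 for HSP90AA1, 0.91 for AHSA1 and 0.29 for HSP90AB1, with adjusted p of 1.6e-13, 3.96e-21 and 0.0225. In the authors' deposited table HSF1 has 0.16 with an adjusted p of 0.265. The same 9 genes are under an adjusted p of 0.05 in the authors' deposited table, which rests on the same libraries.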

How the data were processed

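Poly-A selected dUTP libraries from HEK293T cells were sequenced as paired 75 base reads. Per the labels' protocols, CASAVA 1.8.2 made the FASTQ files and STAR 2.4.0k the alignments, to hg19. HOMER counted exonic reads with 1 transcript kept per gene and no strand option shown, per the file headers, so overlapping genes are uncertain. The deposited per-library values are a signal, scaled by the authors to totals of 29401170 to 29401184. Of values under 1000 steps, 100% are within 0.1 step of whole multiples. Read ends were recovered from these multiples, with each step taken as a read end, which was not tested. The authors' own log2 fold changes and adjusted p-values, made with edgeR 3.6.8 per the labels, are deposited too and quoted only where named.

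Genes were tested with limma 3.58.1 (mean trend, two-sided, Benjamini-Hochberg) on log2(value + 1 deposited unit) after TMM scaling, with edgeR's filter at 10 read pairs. That filter kept 16245 genes. Such fold changes understate those of low genes. CPM are deposited values over the TMM-scaled total. Alternatives were other scalings, a pseudocount of 0.1, no filter, edgeR 4.0.16, DESeq2 1.42.0, a replicate block, an adjusted p of 0.01 and each library left out. edgeR on recovered reads called 2858 genes higher and 2992 lower. R 4.3.3 was used.

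Tables of simulated counts with 200 genes changed were used to check the limma script. No label says that replicates were separate passages, so p-values measure only the spread between these samples. All replicate pairs differed by more than counting noise (chi-square over its degrees of freedom 5.49 to 41.86). The 10 genes, the lists and the tests were chosen with earlier results of these data known. Named were the 10 genes, all paralogs with a row, passing cochaperones, up to 4 genes of smallest p in other lists, genes overlapping a member and the 4 most like HSP90AA1. A few genes of the lists are counted but not reported by name here.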

Additional observations from a re-analysis of the deposited data

How the results depend on the processing

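Of the 10 genes, 8 passed under all 14 alternative fits, and HSF1 passed in none (adjusted p 0.0637 to 0.362). Across these fits HSP90AA1 ranged over log2 0.86 to 1.10 and AHSA1 over 0.84 to 0.96. HSP90AB1 passed no longer with library totals (0.23), upper-quartile scaling (0.27) or no filter (0.30), and ranged over 0.22 to 0.38 with a library left out; the cause was not tested. At an adjusted p of 0.01, 1770 genes were higher and 1751 lower. Same-numbered libraries did not deviate together (correlations 0.058, -0.283 and -0.12, and 1 of 6 libraries correlated best with its own number), so the numbers were not taken as pairs. With the replicate number as a block 2671 genes were higher and 2718 lower, HSP90AB1 stood at 0.30 (adjusted p = 0.0527), 1 receptor or transcription factor client and 1 mitochondrial gene were lower, and no other call on the 10 genes changed. The ratio of AHSA1 to HSP90AA1 changed sign without LOC550643 siRNA replicate 2 (0.02) or 3 (0.03), within a range of -0.13 to 0.03. Without division by length the control level of HSP90AA1 over HSP90AB1 was log2 -0.29, nearer to 0 than per kilobase.

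Counts in the small lists moved more. With library totals 4 receptor or transcription factor clients, 2 HSF relatives and 1 mitochondrial gene were lower, and 1 glucocorticoid target and 2 prolyl isomerases higher. Upper-quartile scaling left 1 and 2 of these higher. Without a filter 3 prolyl isomerases were higher and 1 receptor or factor client lower. At an adjusted p of 0.01, 1 cochaperone, 1 receptor or factor client, 1 glucocorticoid target and 0 prolyl isomerases were lower, and 0 and 1 of the last lists higher. With a library left out, receptor or factor clients called lower ranged from 1 to 2, glucocorticoid targets from 0 to 2 higher and 1 to 2 lower, prolyl isomerases from 1 to 4 higher and 0 to 3 lower, HSF relatives from 0 to 1 higher and mitochondrial genes from 0 to 1 lower. Of the named genes outside the 10, 33 of their alternative values lost the call, 1 gained it and 0 changed sign. The thinnest library held 892 read pairs for FKBP5, the least covered of the 10 genes, and the part of depth in the calls was not tested.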
